A study of Mus musculus with 16 samples.

Results

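Sfi1 and Drg1 are neighbouring genes at the centromere-proximal end of the assembled sequence of mouse chromosome 11. All peaks of 5-hydroxymethylcytosine (5hmC) that began between positions 3100000 and 3300000 of this chromosome (GRCm38, the assembly also called mm10) were taken, which gave 450 of the 7582 peaks of the study (5.94%). The window was selected on measured values, the peaks that recur there over the 12 lists, so the number of peaks, their fold enrichments and their recurrence are given as descriptions, with no test of the window against the rest of the genome. The first peak began at 3100212 with a fold of 1.42, and the last one ran from 3220511 to 3220710 with a fold of 1.28. The next peak outside, at 3604988, had a fold of 1.89. Of the 705 peaks on chromosome 11, 63.8% lay in the window.

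The DNA came from c-kit+ bone marrow cells, a population enriched for stem and progenitor cells, of mice that all carried the NHD13 (NUP98-HOXD13 fusion) transgene, a model of myelodysplastic syndrome. The knockout group also lacked Tet2 (NHD13/TET2-KO in the labels), and the control group is labelled NHD13 alone. The labels give no age, strain, sex or number of mice, and do not say how Tet2 was deleted, and peak positions give no check of the deletion. Sonicated DNA was ligated to adapters, pooled and immunoprecipitated with the 5hmC antibody HMC31, and each of the 12 resulting libraries (6 per genotype) has its own list of peaks called by the authors. Library numbers 1 and 7 were knockout and numbers 3 and 5 control. Each number occurred in 3 pools, and from the titles alone a number was read as a DNA library that was immunoprecipitated again in each pool. The spread between pools may therefore be technical, and nothing states that the numbers are separate mice. The 4 input libraries were not analysed here.

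5hmC is made from 5-methylcytosine by the TET dioxygenases, of which Tet2 is a major one in blood stem and progenitor cells. It is an intermediate of DNA demethylation and in many tissues is found in gene bodies and at enhancers, and loss of TET2 is a frequent lesion of human myeloid disease. Sfi1 encodes a centrin-binding protein of the centrosome. Drg1 encodes a developmentally regulated GTP-binding protein, whose partner protein is Zc3h15. Between and around them lie Eif4enif1, which encodes a transporter of the translation factor eIF4E, and Pisd-ps1, a transcribed pseudogene related to the phosphatidylserine decarboxylase gene Pisd.

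Summits of several lists lay close together at some places, and the reference sequence at those places is given here. Summits of different lists were gathered within 200 bp, and 120 bases around the median summit are printed below from the GRCm38 reference of RefSeq, plus strand, with CpG dinucleotides, the usual context of 5hmC, in capitals. The first 3 sites each had a summit in 7 of the 12 lists, and the other 2 in 6 lists. The summits of a printed site spanned 156 to 188 bp, so some lie outside the printed bases. A further site with summits in 6 lists, 3 of each genotype and all 4 library numbers, had its median summit (3131856) in exon 33 of Sfi1. Its summits ran from 3131813 to 3131920 and the exon begins at 3131850, so some lay outside the gene. This site is not printed because it overlaps a UTR. The printed sites lie in intron 14 of Sfi1 (chr11:3146495-3146614), intron 2 (chr11:3188550-3188669), intron 1 (chr11:3191609-3191728), Pisd-ps1 (chr11:3127145-3127264), and upstream of the Sfi1 start (chr11:3194017-3194136). Introns and exons are those of the GENCODE M21 transcript of Sfi1 with 33 exons. The Sfi1 start is also that of GENCODE, and the longer RefSeq model of the gene (to 3203347) takes in the upstream site.
Sfi1 intron 14: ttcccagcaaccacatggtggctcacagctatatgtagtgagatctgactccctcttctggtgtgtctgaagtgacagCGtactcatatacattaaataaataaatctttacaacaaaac
Sfi1 intron 2: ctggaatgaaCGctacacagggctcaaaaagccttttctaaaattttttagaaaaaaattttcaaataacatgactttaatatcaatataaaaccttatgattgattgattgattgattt
Sfi1 intron 1: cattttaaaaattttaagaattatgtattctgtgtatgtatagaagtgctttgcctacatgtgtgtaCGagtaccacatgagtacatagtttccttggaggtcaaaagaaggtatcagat
Pisd-ps1: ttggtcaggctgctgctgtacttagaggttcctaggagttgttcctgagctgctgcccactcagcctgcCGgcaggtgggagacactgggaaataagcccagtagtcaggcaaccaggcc
Sfi1 upstream: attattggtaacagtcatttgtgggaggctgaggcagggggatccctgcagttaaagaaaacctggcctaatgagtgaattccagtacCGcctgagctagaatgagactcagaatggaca

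Each of these 5 stretches held a single CpG. Stretches of the same length around other summits did not all do so. The unprinted site with its median summit at 3131856 also held 1. Among sites with summits in 5 lists, that at 3128399 held 0 and that at 3130950 held 2. The stretch around 3188937, the summit of the window's strongest peak (fold 4.27, control number 5, pool 3), held 0. The GC content of the 5 printed stretches ran from 25.8% (Sfi1 intron 2) to 58.3% (Pisd-ps1), so they do not share a base composition. At the intron 1 site the folds were 1.29 in knockout number 1 (pool 3), 1.74, 2.60 and 1.86 in number 7 (pools 1, 2 and 3), 1.35 in control number 3 (pool 1), and 1.64 and 1.95 in number 5 (pools 2 and 3). At the intron 2 site the folds were 1.30 in number 1 (pool 1), 1.92, 1.25 and 1.46 in number 7 (pools 1, 2 and 3), 1.69 and 1.15 in number 3 (pools 1 and 2) and 1.73 in number 5 (pool 2). Folds of both genotypes overlapped at either site. Both sites had a median copy number of 1 in the reference genome, counted over the 31-base words around the summits, while the intron 14 site had 3 copies and the Pisd-ps1 site 2.

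Peaks were present in all 12 lists, but their number followed the library number rather than the genotype. Knockout number 1 gave 34 window peaks in pool 1, 19 in pool 2 and 21 in pool 3, while knockout number 7 gave 60, 65 and 54. Control number 3 gave 20 window peaks in pool 1, 4 in pool 2 and 2 in pool 3, while control number 5 gave 58, 59 and 54. Numbers 5 and 7, of opposite genotype, thus lay between 54 and 65 peaks, and numbers 1 and 3 between 2 and 34. The length covered by peaks showed the same order, with 21357 to 25268 bp per list in numbers 5 and 7 and 467 to 11683 bp in numbers 1 and 3.

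**Figure D1:**
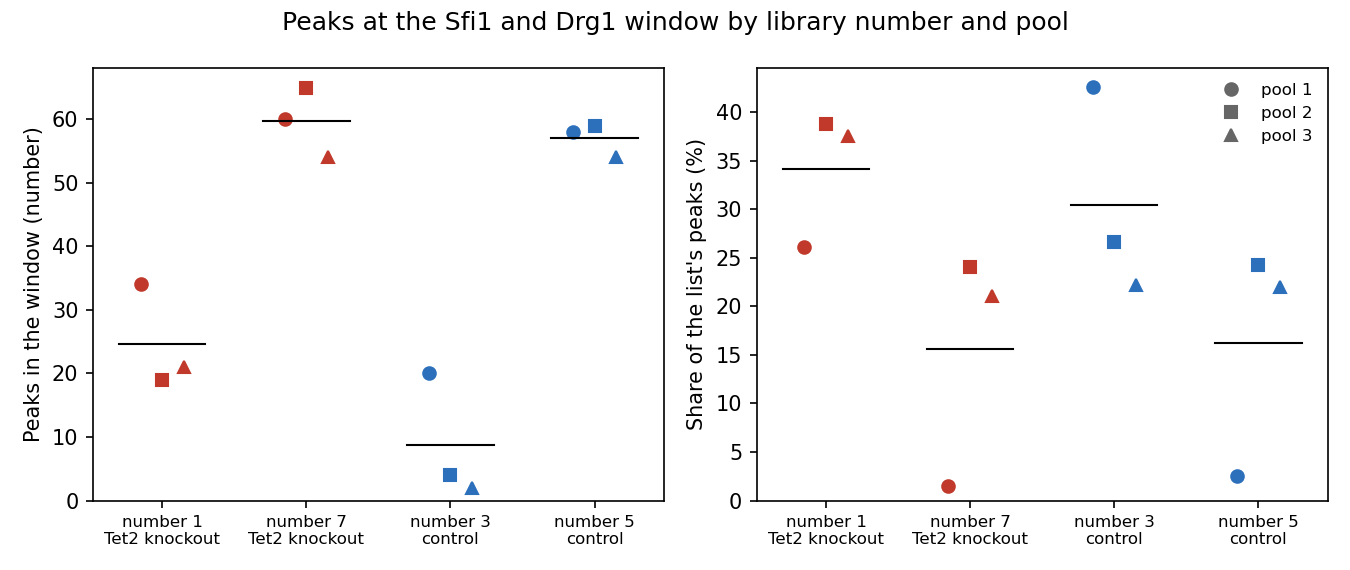
Peaks in the Sfi1 and Drg1 window (left, number) and their share of all peaks of the list (right, %), for each library number; points are the 3 pools, red for Tet2 knockout and blue for control, and lines are arithmetic means. Numbers 5 and 7 have 54 to 65 peaks whatever the pool, and the share falls to 1.53% and 2.48% in the pool 1 lists of numbers 7 and 5.

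The share of a list's peaks that lay in the window was lowest in the 2 longest lists. In pool 1, number 7 had 1.53% of 3924 peaks there (95% Wilson interval 1.19 to 1.96%) and number 5 had 2.48% of 2337 peaks (1.925 to 3.195%). In the other 10 lists the share was between 21.1% and 42.6%. Those 10 lists together had 332 of 1321 peaks (25.1%) in the window. Between pools of numbers 5 and 7 the number of window peaks thus varied far less than the length of the list. Intervals cover counting error only.

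Tet2 knockout and control libraries did not differ in these measures beyond the spread between library numbers. Geometric means of the peak number were 38.8 for knockout and 19.9 for control lists (1 added to each value; SD of log10 values 0.27 and 0.66, n = 2 library numbers each), a ratio of 1.95 (two-sided exact permutation test, p = 0.667). The ratio within pools 1, 2 and 3 was 1.31, 2.10 and 2.71. The length covered had geometric means of 13720 and 5703 bp and a ratio of 2.41 (exact permutation test, p = 1), with 1.43, 2.78 and 3.51 within pools. Knockout lists held on average 24.9% ± 13.1 of their peaks in the window and control lists 23.4% ± 10.1 (SD, n = 2), which differ by 1.495 points (p = 1 by the same exact test), or by -8.68, 5.95 and 7.21 points within pools. With 6 arrangements, the smallest p that this test allows is 0.33, so it could not have reached 0.05. Without control number 3, which has the shortest lists, the ratio of peak numbers turned to 0.669 and that of covered length to 0.578.

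Almost all of the signal lay in a stretch of 73.1 kb, taken from the first peak that overlaps Pisd-ps1 or Sfi1 to the last before a peak-free gap of over 10 kb. Between 3126933 and 3200000 there were 443 of the 450 peaks, with 6 before it and 1 after it. Within the stretch, 83.9% of bases were under a peak of at least 1 list, but no base was covered in more than 8 lists, and a depth of 8 lists was reached over 414 bp. In the next 100 kb, from 3200000 to the end of the window, 0.2% of bases were covered. The assembly gap ends at 3100000, 26932 bp before the covered stretch, and no gap of the reference lies at its other end. No peak of any list spanned position 3200000, and 1 peak, of knockout number 1 in pool 3, ended there.

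**Figure D2:**
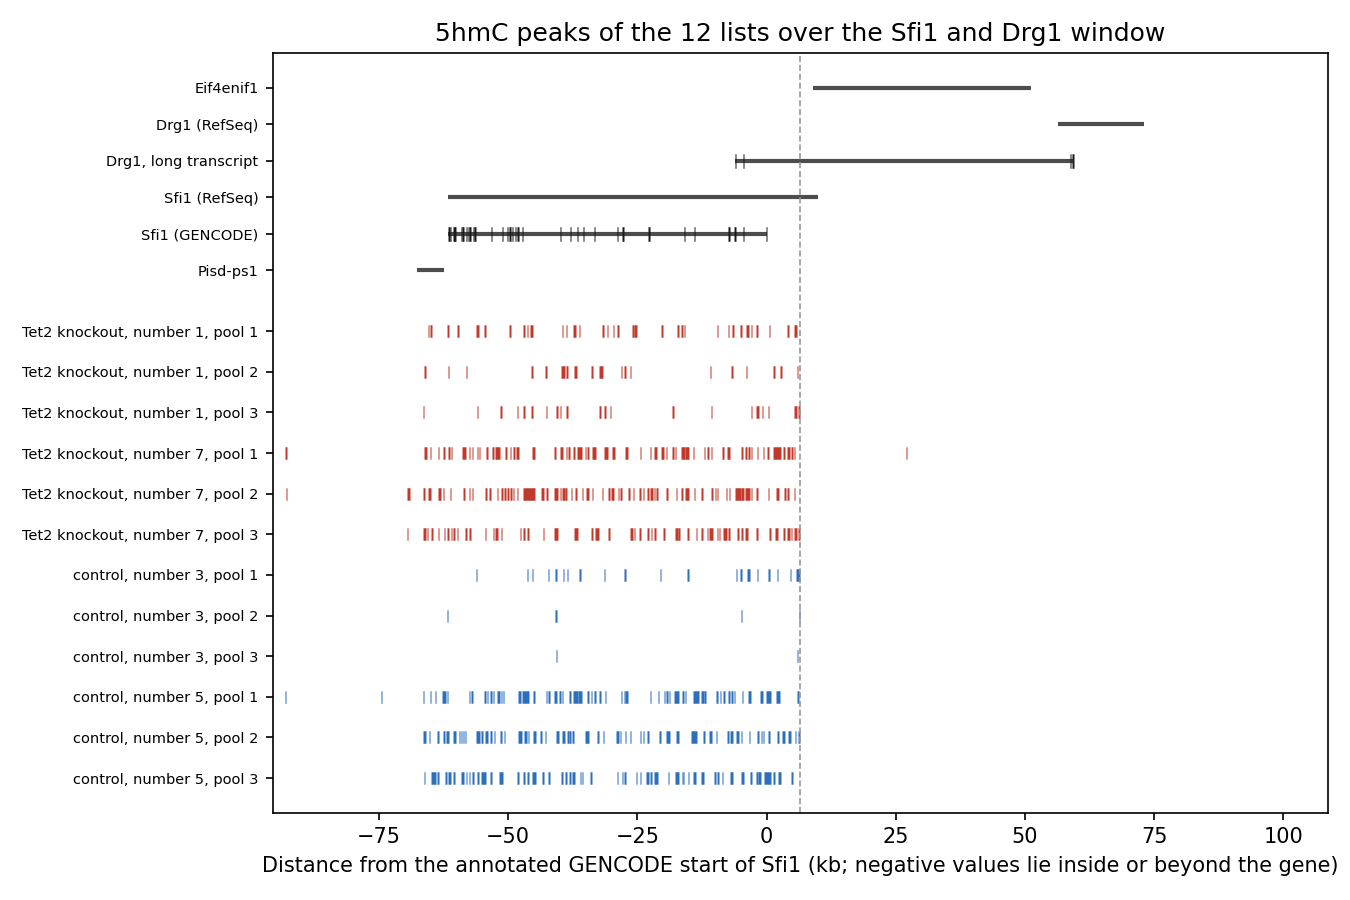
Position of each 5hmC peak in the 12 lists (red, Tet2 knockout; blue, control), plotted by distance in kb from the GENCODE start of Sfi1, with gene bodies as grey lines and exons of Sfi1 and of the long Drg1 transcript as dark ticks. Of the 450 peaks, 443 lie in the stretch over Pisd-ps1 and Sfi1 that ends 6.54 kb upstream of the GENCODE Sfi1 start (dashed line). Beyond that line lies 1 peak, and the RefSeq body of Drg1 has none.

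Sfi1 lies on the minus strand at 3131850 to 3193463 and carried most of the peaks. In all, 370 peaks overlapped its annotated body, 204 in knockout and 166 in control lists, and each of the 12 lists had at least 1. Under the longer RefSeq model of the gene, which ends at 3203347, 414 peaks overlapped it. Of 365 summits in the 33-exon transcript, 27 (7.40%) lay in its exons, which make up 6.45% of its length, and 338 in its introns. Summits fell in 27 of the 32 introns and 16 of the 33 exons. With the exons of all Sfi1 transcripts merged, 50 summits (13.7%) were exonic, over 12.3% of the gene's length. Intron 14 had 41 summits, in all 12 lists, followed by intron 6 with 38, intron 4 with 35 and intron 1 with 28. Another 46 summits lay upstream of the GENCODE Sfi1 start within the covered stretch.

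The assignment of peaks to Drg1 rested on the annotation. GENCODE gives Drg1, on the minus strand, the span 3187360 to 3266415, and 89 peaks overlapped it, at least 1 in every list. That span comes from the transcript Drg1-206 of 4 exons, annotated as subject to nonsense-mediated decay. Its exons 1 and 2 overlap exons 7 and 8 of the main Drg1 transcript, its exon 3 has the same ends as exon 2 of Sfi1, and its exon 4 overlaps part of exon 3 of Sfi1, so it crosses from Drg1 into Sfi1. Of the 89 peaks, 44 overlapped the GENCODE body of Sfi1 as well. Among the other 45, 44 lay in the 6.54 kb between the GENCODE Sfi1 start and position 3200000. The remaining 1 was the peak at 3220511, inside Eif4enif1. The longer RefSeq model of Sfi1 (to 3203347) takes in that 6.54 kb, so under it those 44 peaks overlapped Sfi1 too. No Drg1 summit lay in a Drg1 exon, and the RefSeq body of Drg1 (3249907 to 3266464) had a peak in 0 of the 12 lists. A floor of signal cannot be given for that body, because the lists hold only peaks above the caller's threshold.

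Of the 35 peaks in neither gene body, 28 overlapped Pisd-ps1 (3125904 to 3131004), 17 in knockout and 11 in control lists.

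Overlapping peaks of all lists merged into 59 regions of 200 to 4685 bp, with a median length of 915 bp and a median of 6 lists. Both genotypes contributed to 49 of them, 8 were found in knockout lists only and 2 in control lists only. All 4 library numbers had a peak in 19 regions, 11 were shared by numbers 1, 5 and 7, and 19 by numbers 5 and 7 alone. Peaks from all 3 pools occurred in 41 regions, and 4 regions came from a single list. A peak in 10 or more lists was seen in 5 of the 59 regions (8.47%), against 0.112% of the 6230 regions of the whole genome. Recurrence was part of the choice of this window, so nothing is read from that comparison.

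The longer RefSeq model of Sfi1 (to 3203347) takes in the most recurrent region, 3198763 to 3200000. The region lies upstream of the GENCODE Sfi1 start, inside intron 2 of the long Drg1 transcript. Its highest fold per list was 1.39, 1.27 and 1.78 in knockout number 1 (pools 1, 2 and 3) and 1.48, 1.65 and 2.01 in number 7. It was 1.63, 1.65 and 1.17 in control number 3 and 2.95 and 2.29 in number 5 (pools 1 and 2), with no peak in pool 3 of number 5. The groups overlapped, and the region was present in 11 lists, including all 3 of the sparsest library, number 3.

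Another 4 regions were found in 10 lists. The region at 3159400 to 3164084, around exon 10 of Sfi1, was the longest, with folds of at most 2.54. The region at 3144933 to 3148763 covered exons 15 and 16 and part of exon 17, and reached 2.45. That at 3189303 to 3190689 lay wholly in intron 1 and reached 2.48. All 3 were present in all 6 knockout lists and 4 control lists. In each of them the control lists that lacked a peak were pools 2 and 3 of number 3, which had 4 and 2 window peaks in all.

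The fifth region, at 3185866 to 3189070, spans exons 2 to 4 of Sfi1 and was found in 5 lists of each genotype. Its highest folds in the control were 1.69 and 1.15 in number 3 (pools 1 and 2) and 2.18, 2.32 and 4.27 in number 5. In the knockout they were 1.66 and 1.51 in number 1 (pools 1 and 2) and 2.37, 1.76 and 1.57 in number 7. Only pool 3 of number 5 stood clear of the other lists.

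That list held the strongest peak of the window. It ran from 3188505 to 3189070, with a fold of 4.27, a -log10 p of 10.1 and a -log10 q of 4.93, and its summit at 3188937 lay 4 bp outside exon 2 of Sfi1 (3188941 to 3189056), which is also exon 3 of the long Drg1 transcript. With the exons of all Sfi1 transcripts merged, that summit was exonic. This peak was the single window peak with a q-value under 0.05, 1 of 450 (0.222%), against 4.22% of all peaks. The peaks of the same library number that overlapped it had folds of 1.36 in pool 1 (3188743 to 3188942) and 1.73 in pool 2 (3188474 to 3188763), so the value of 4.27 was not repeated in the other immunoprecipitations of that number.

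Of the regions found in 9 lists, the 3 with the highest folds lie in or just upstream of the GENCODE Sfi1 body. One, at 3193052 to 3194326, reaches over exon 1 and the GENCODE start of Sfi1. However, 7 of its 9 peaks lay wholly upstream of the GENCODE Sfi1 body and no summit lay within it. All 9 peaks overlapped the GENCODE span of Drg1. It had folds of 1.21 and 1.17 in knockout number 1 (pools 1 and 3), 2.22, 2.32 and 1.54 in number 7, 1.19 in control number 3 (pool 1) and 2.71, 1.76 and 1.68 in number 5. The second, at 3191351 to 3192979 in intron 1, ranged up to 2.60, and the third, at 3152274 to 3153226 in intron 14, reached 3.22 in number 7, pool 1. At the intron 14 region, as at the region ending at 3200000, all 3 pools of control number 3 had a peak, here with folds of 1.57, 1.31 and 1.28.

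Regions with a peak in both knockout numbers and in neither control number numbered 3 of 59 (5.08%), against 0.177% of all regions of the genome. None of the 59 showed the opposite pattern, which 0.0321% of all regions did. Recurrence over lists was part of the choice of this window, so nothing is read from these comparisons with the genome. Since number 3 contributed few peaks, absence from it carries little information. The region at 3143692 to 3144167, which reaches over exon 19 of Sfi1, had folds of 1.65 in number 1 (pool 1), and 1.74 and 2.07 in number 7 (pools 1 and 2). Only its number 1 peak overlapped that exon, and every summit of the region lay in intron 18. The region at 3133557 to 3133869, in intron 29, had 1.74 in number 1 (pool 1) and 1.69 in number 7 (pool 3). The region at 3175254 to 3175507, in intron 6, had 1.28 in number 1 (pool 3) and 1.67 in number 7 (pool 1). None of the 3 was present in more than 3 of the 6 knockout lists. Leaving out pool 1 left 1 such region.

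The deposited fold enrichments in the window were low. They ran from 1.09 to 4.27 with a median of 1.64 over the 450 peaks; 85 peaks had a fold of at least 2, and 3 had a fold of at least 3. The other 2 of these were at 3152274 to 3152774 in number 7 (3.22) and 3141267 to 3141886, in intron 21 of Sfi1, in number 5 (3.19), both in pool 1. Median folds were 1.61 to 1.89 in the lists of numbers 5 and 7 and 1.23 to 1.41 in those of numbers 1 and 3, so the median followed the library number and not the genotype. The window median lay below that of the list's other peaks in 11 of the 12 lists, the exception being number 7 in pool 1 (1.83 against 1.70). In no list was a window peak the one with the highest fold. The weakest window peak had a -log10 p of 0.54, which is a p of 0.286, and 371 of the 450 had a -log10 p of at least 1.

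**Figure D3:**
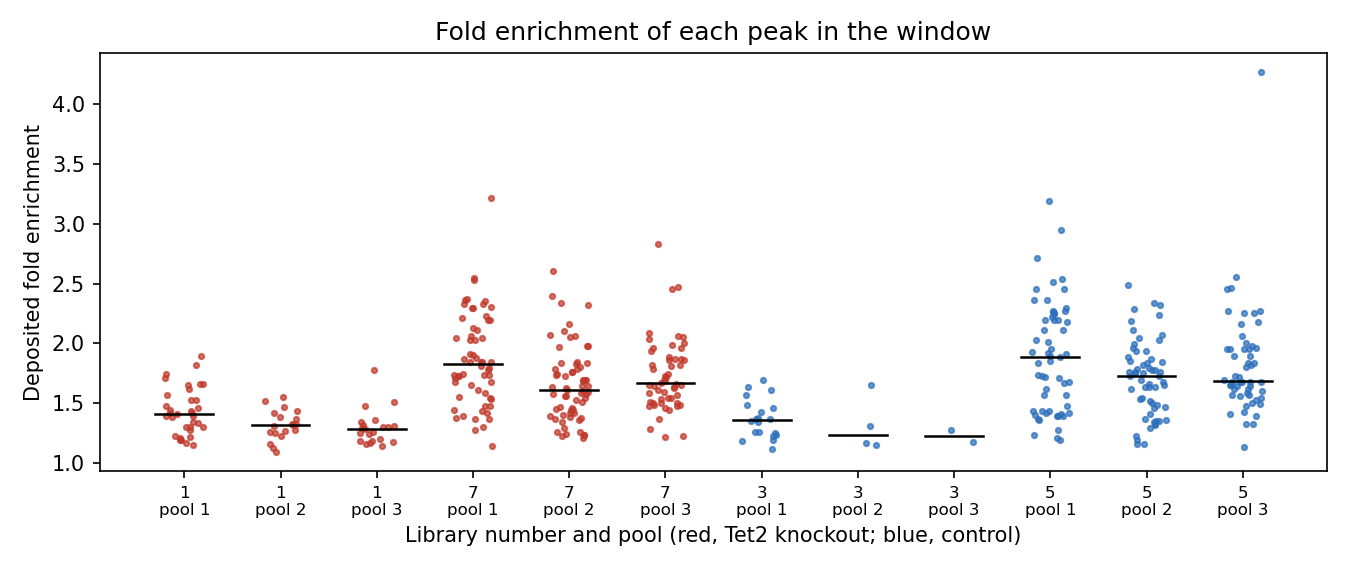
Deposited fold enrichment of each window peak, by library number and pool (red, Tet2 knockout; blue, control); horizontal lines are medians. Numbers 5 and 7 have medians of 1.61 to 1.89 and numbers 1 and 3 of 1.23 to 1.41, and the single point at 4.27 belongs to control number 5, pool 3.

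The difference in width between window peaks and others rested largely on 2 lists. The window peaks' median width was 314.5 bp (200 to 2275 bp), against 200 bp elsewhere, and 9.33% were exactly 200 bp wide against 78.8% elsewhere. The long pool 1 lists of numbers 5 and 7 hold most of the peaks elsewhere. Without these 2 lists the median widths were 314.5 and 299 bp, and the shares of 200 bp peaks 6.02% and 14.96%.

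In 7 lists the number of fragments at the summit could be worked back from the deposited fold and p-value, as a whole number for every peak within a tolerance of 0.001 on the -log10 p. The median summit pileup in the window was 30 fragments in number 1, pool 1, against 5, 11 and 11 in number 7 (pools 1, 2 and 3) and 5, 10 and 10.5 in number 5. For peaks elsewhere it was 181.5 in number 1, pool 1, 3, 11 and 10 in number 7, and 3, 14 and 11 in number 5. The same solution gave the local background that the fold is relative to. In all 7 lists the median background in the window was 1.84 to 1.96 times the lowest background of the list. Peaks elsewhere had a higher median background in number 1, pool 1 (117.6 against 20.68) and number 5, pool 2 (6.677 against 5.723). It was lower elsewhere in number 7 (1.348, 5.756 and 5.342 against 2.485, 6.285 and 6.106). The same held in number 5, pools 1 and 3 (1.113 and 4.816 against 2.137 and 5.48). Summits of 2 to 10 fragments in number 5, pool 1, leave each single peak imprecise. In the other 5 lists 6.38% to 26.7% of peaks gave whole numbers, and no pileup was taken.

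**Figure D4:**
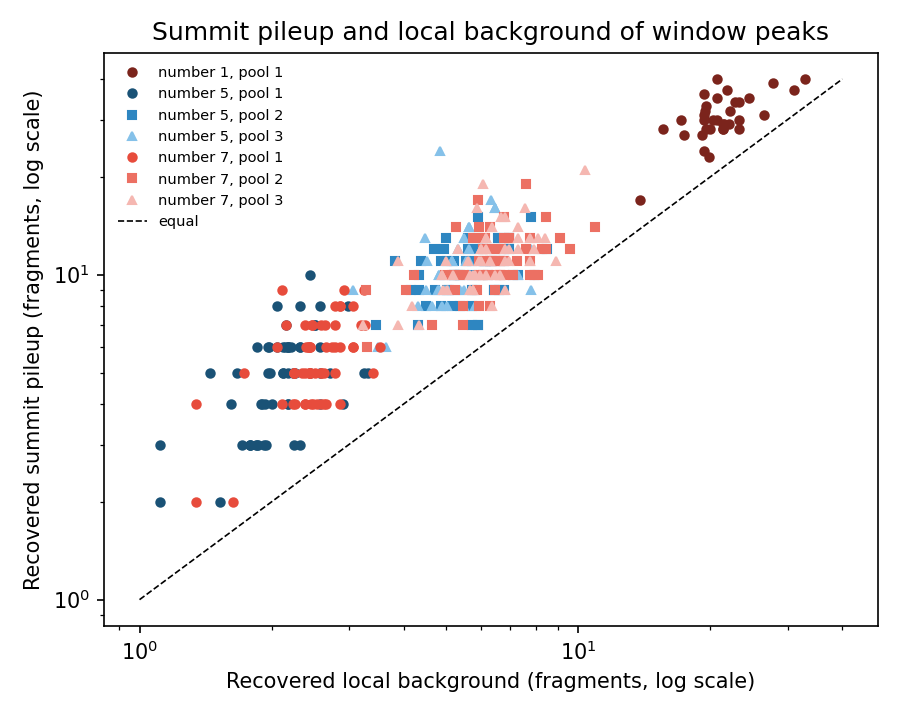
Recovered fragments at the summit against recovered local background for window peaks in the 7 lists with whole-number solutions (log axes; circles, squares and triangles are pools 1, 2 and 3; reds are knockout, blues control). Every peak lies above the line of equality, which the formula used requires for any fold above 1. Number 1, pool 1, has 17 to 40 fragments over backgrounds of 13.8 to 32.96, higher than any background of the other 6 lists (at most 10.9).

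Pools of the same library number shared the covered bases only in part. Among the 6 lists of numbers 5 and 7, the share of a list's covered bases that the other list of a pair also covered was 35.2% to 46.3% for pairs of the same number (6 pairs) and 30.8% to 41.9% for pairs of opposite genotype (9 pairs). These ranges overlap. Each of these lists covered 21357 to 25268 bp, nearly all in a stretch of 73068 bp, so some sharing follows from coverage alone. That share was not worked out, so no degree of likeness is read from the ranges.

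Much of the covered sequence has near copies in the reference. Of the 450 summits, 308 (68.4%) lay where the 31-base words around them had a median copy number above 1. The median copy number over 10 kb first fell to 1 after position 3180000. Before that position in the covered stretch, 71.1% of 31-base words occurred more than once, and after it 23.2%. Peaks covered 83.1% and 86.3% of these segments, so coverage did not fall where the sequence became single-copy. Beyond 3200000, 12.7% of words were multi-copy and coverage was 0.2%. The part of copy number in the signal was not tested.

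**Figure D5:**
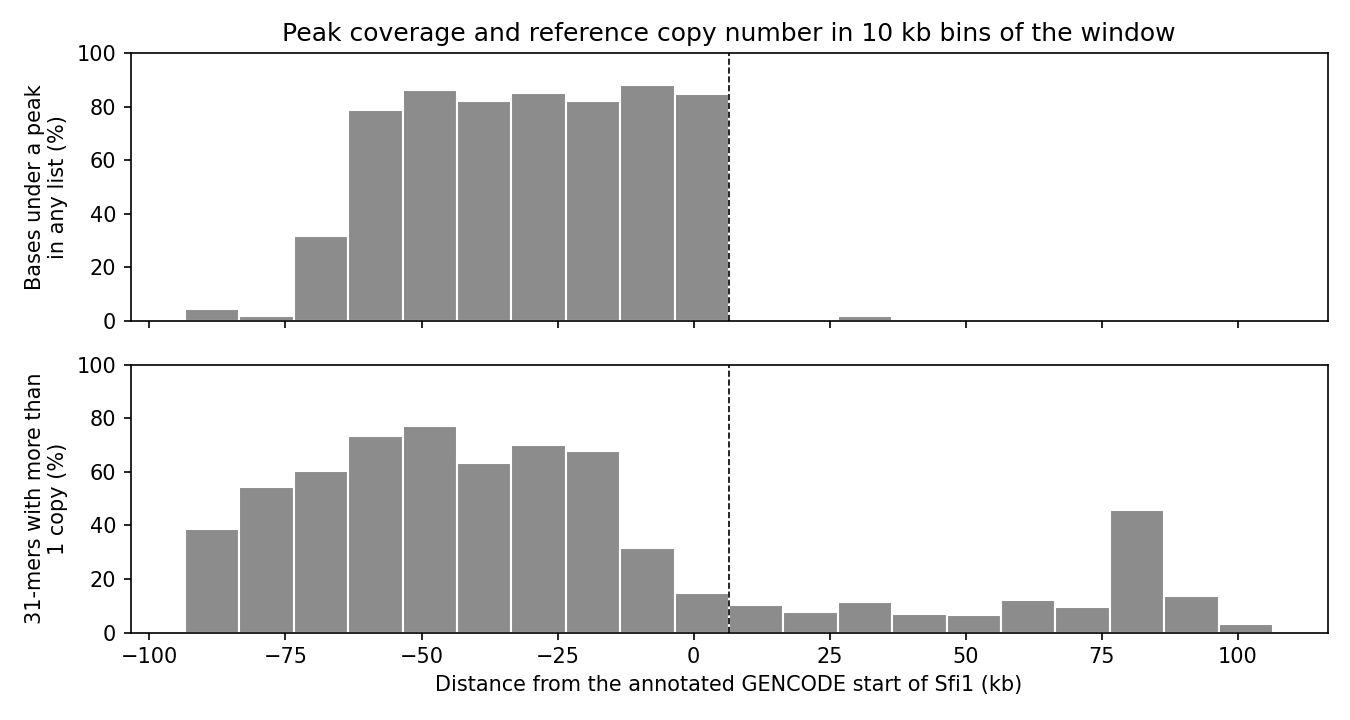
Share of bases under a peak of any list (top, %) and share of 31-base words with more than 1 copy in the reference (bottom, %), in 10 kb bins by distance from the GENCODE start of Sfi1; the dashed line marks the end of the covered stretch. Coverage stays between 78.6% and 87.9% over the 7 bins before the line, while the multi-copy share among them is at most 77.1% and falls to 14.7% in the last.

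Matches outside the window were sought for 31-base words of the whole window with more than 1 and at most 20 copies. A match can therefore stem from window sequence outside the covered stretch. Stretches of other chromosomes are named where a 10 kb bin held at least 500 matching words. The largest set of matches lay on an unplaced contig of the assembly, with 36604 matching words, on which no list had a peak. Whether the authors aligned reads to that contig is not given in the sources used here. On chromosome 17, between 3070001 and 3090000, the stretch with Pisd-ps2 had 3743 matching words and 17 peaks in 7 lists, 3 knockout and 4 control, with folds of 1.102 to 2.377. On chromosome 5, between 32720001 and 32750000, the stretch with Gm2420 and Pisd had 4438 matching words and 7 peaks in 4 lists, 3 knockout and 1 control, with folds of 1.28 to 2.62. No list had a peak at the other matching stretches, which lay on chromosome 7 (42970001 to 42980000, 1663 words) and chromosome 19 (8020001 to 8030000, 1159 words, and 8310001 to 8320000, 714 words).

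Bases covered in more lists were poorer in G and C. GC content was 49.8% where no list had a peak, 46.9% under 1 to 3 lists, 43.6% under 4 to 6 lists and 36.9% under 7 or more lists. CpG density did not follow this order. It was 1.22, 0.99 and 0.63 per 100 bp in the first 3 classes and 1.46 in the last, which holds 1168 bp. The exons of the 33-exon Sfi1 transcript had 2.17 CpG per 100 bp and its introns 0.86, and the mean number of lists per base was 2.27 and 2.29.

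Genes related to the members by function were counted from fixed lists. Of 16 genes for centrin partners and centriole assembly, 1 had a peak, Cep63, in knockout number 7, pool 1 (fold 1.28). None of 4 genes of the Drg family and its partners, among them Drg2 and Zc3h15, had any. Across the genome, 8.17% of 21938 protein-coding genes had a peak in some list, so these counts show nothing particular to the related genes. Of 27 protein-coding genes in the 1 Mb after the window, Morc2a had 1 peak, again in number 7, pool 1. No peak was found at 6 marker genes of c-kit-positive progenitors, Kit and Cd34 included, or at 5 of other marrow cells. Peaks give no measure of expression, so the cell type was not checked by them.

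The genes most like Sfi1 were taken by the number of lists in which gene and Sfi1 both have or both lack a peak. Since Sfi1 had a peak in all 12 lists, this ranking amounts to the number of lists in which a gene has a peak. Tmem267 on chromosome 13 had a peak in all 12 lists, and Sp140 and the overlapping antisense gene Gm10552, on chromosome 1, in 10. C130026I21Rik and Gm2619, overlapping genes of chromosome 1, and Cldn34d on the X chromosome had peaks in 9. Spearman correlations of peak numbers with those of Sfi1, used to order ties, ran from 0.75 (Cldn34d, which fell outside the 5 by its tie) to 0.90 (Sp140) over the 12 lists. The lists share libraries, depth and length, so these values are a description.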

How the data were processed

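Peak lists of 12 immunoprecipitated libraries were used. Bowtie2, SAMtools, MACS2 and the build mm10 are named in the submitters' processing notes; their roles and settings, and whether the inputs served as control, are not given in the sources used here. The deposited fold enrichment is a linear ratio over local background, and the -log10 p-value and -log10 q-value of each peak were also deposited by the authors, as was a score derived from the p-value. The summit offset in bp, deposited as a further column, located summits. Peaks were called per library, and the fold and p-values are the authors' own.

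Peaks were merged and compared with Python 3.11.15, numpy 2.4.6, pandas 2.3.3 and scipy 1.17.1. Regions of different lists were joined at an overlap of 1 bp. Genes came from GENCODE M21 and RefSeq (GRCm38.p6), and coordinates are 1-based. Copies of 31-base words were counted in the primary assembly with numba 0.67.0. Summit pileup k and background λ were solved from fold = (k + 1)/(λ + 1) and the Poisson p of more than k fragments, which assumes the caller's form. They were kept where at least 90% of a list's peaks gave whole numbers within a tolerance of 0.001 on the -log10 p. Depth of the libraries is unknown, so precision rests on peak numbers. These steps were tested on simulated data. The simulated backgrounds took in those of the window peaks, but not the median of 117.6 elsewhere in number 1, pool 1.

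Genotypes were compared over library numbers, 2 against 2, after averaging log10(value + 1), or the share, over pools. The regions named are the 8 in the most lists, those with peaks in both numbers of 1 genotype only, and those with a peak of q under 0.05; related genes were named where they had a peak, and the 5 genes most like Sfi1 by matching lists. The sequences shown, the ends of the covered stretch and the position at which copy number was split were chosen after the values were seen. Members, gene lists and tests were chosen with earlier results of these data known. Alternatives varied the overlap, peak strength, gene bodies, copy number, added constant, pools and library numbers.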

Additional observations from a re-analysis of the deposited data

How the results depend on the processing

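The genotype comparison of the window rests on few libraries. Leaving out 1 library number at a time moved the ratio of peak numbers between 0.669 and 5.70, that of covered length between 0.578 and 10.01, and the difference in share between -7.79 and 10.8 percentage points. Both ratios reversed without control number 3, and the share reversed without knockout number 1 (-7.79), without control number 5 (-5.63) and with single-copy summits only (-2.21). With the 12 libraries as samples and the pool as replicate block, the ratios were 1.95 and 2.41 (exact permutation test within pools, 216 arrangements, p = 0.324 for each) and the difference in share was 1.495 points (p = 1, same exact test). No call changed. This setting counts the pools of a library number as separate samples, though they may be technical repeats. Its p-values therefore do not measure the spread between library numbers. At an overlap of at least 100 bp the regions numbered 93, with 2 in 10 or more lists and 6 seen in both numbers of 1 genotype only; with peaks of a -log10 p of at least 1, 1 region was in 10 or more lists; without pool 1, 1 region was seen in both numbers of 1 genotype only. The cause was not tested, beyond fewer peaks or shorter overlaps entering by construction. Leaving out 1 library number gave 59 to 77 regions. The count of regions in 10 or more lists was not run with pool 1 or a library number left out, since fewer than 10 lists remain. Unknown library depth, and lists of 9 to 56 peaks in 5 libraries, limit what absence of a peak shows.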
